A study of Mus musculus with 6 samples.

Results

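The genes described here process, fold and crosslink collagen after its chains have been made. They are the 10 genes Lox, Loxl1, P4ha1, P4ha2, Plod1, Plod2, Serpinh1, Sparc, Pcolce and Bmp1, chosen by name and matched to the Entrez gene IDs of the deposited table, and all 10 were found among its 13363 genes. RNA was sequenced from the gastrocnemius, a calf muscle, of 3 C26 mice and 3 Control mice. All were male Balb/c mice bought at 6 weeks of age and kept for 1 week before the experiment. The C26 mice had received 500000 cells of the C26 colon adenocarcinoma line under the skin of the right flank, a model of cachexia, the wasting that accompanies cancer. The Control mice carried no tumor, and no other treatment or allele is given for either group. The day of collection is not stated for the sequenced mice.

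A collagen chain is modified while it enters the endoplasmic reticulum (ER). Prolyl hydroxylases stabilize the triple helix, lysyl hydroxylases prepare the lysines that later carry crosslinks, and the chaperone encoded by Serpinh1 holds the folded helix until it is secreted. Outside the cell, the protease encoded by Bmp1 removes the end peptides, with help from the Pcolce protein, and oxidases of the Lox family crosslink the fibrils. In skeletal muscle most of this work is done by fibroblasts, and the fibers themselves are wrapped in the resulting matrix.

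The values are FPKM, read counts divided by transcript length and by the number of mapped reads, so that levels can be compared between genes. Fold changes are on the log2(TPM + 1) scale after TMM scaling, where TPM are FPKM rescaled to a common sum, and tests are those of limma with Benjamini-Hochberg adjustment over all 13363 genes. A gene is called at an adjusted p under 0.05. Errors are the SD of 3 muscles, and read counts were not analysed here, which leaves the depth unknown. In bulk muscle, fewer cells of a type and less RNA per cell cannot be told apart. The tissue label was checked against muscle fiber genes such as Acta1 and Ckm. All 10 fiber markers were listed, of which 1, Mylpf, was called lower and 9 were not called, with a median log2 fold change of -0.26. They summed to 65924 to 96177 FPKM in the C26 group and 123592 to 129375 in the Control group. Sums of lists are of FPKM as deposited. All genes together also summed to less in C26 muscles (531061 to 585169 FPKM) than in Control muscles (626992 to 688300). Within the groups, C26 replicate 3 and Control replicate 3 correlated least with the others. Control replicate 3 also held lymphoid transcripts, with 134 FPKM of the B cell gene Cd79b against 0.05 to 0.82 in the other 5 muscles.

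Of the 10 genes, 4 were lower and 2 were higher in C26 muscles. Pcolce, Sparc, Bmp1 and Serpinh1 fell, Lox and P4ha2 rose, and Loxl1, P4ha1, Plod1 and Plod2 did not pass the test. The number called higher was 0 without C26 replicate 1 or 2 and 1 without any single Control muscle, and the number called lower was 2 without C26 replicate 1. Calls over all genes dropped too without C26 replicate 1 or 2. From 2590 higher and 1931 lower they went to 1131 and 669 without C26 replicate 1, and to 1528 and 946 without C26 replicate 2. Without Control replicates 1, 2 and 3 in turn, 1152, 2004 and 2231 of all genes were called higher. Among all genes, 33.8% were called, 14.5% lower and 19.4% higher. Higher genes made up 57.3% of all calls, and 40.1% with FPKM as deposited, where the median of all genes moved to -0.14. The median log2 fold change of the 10 genes was -0.48, and that of all genes was -0.05. In FPKM, 8 of the 10 had no overlap between groups, 6 of them lower and 2 higher in C26 muscles. The same held for 53.3% of all genes, 34.6% lower and 18.7% higher. After scaling, 6 of the 10 had no overlap, 4 lower and 2 higher, and they were the genes called. Among all genes the share without overlap was then 53.5%, with 26.5% lower and 27% higher. Only Pcolce also passed a fold change of 4, as 1.73% of all genes did downward and 1.77% upward, and without C26 replicate 1, C26 replicate 2 or Control replicate 1 the number was 0.

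**Figure D1:**
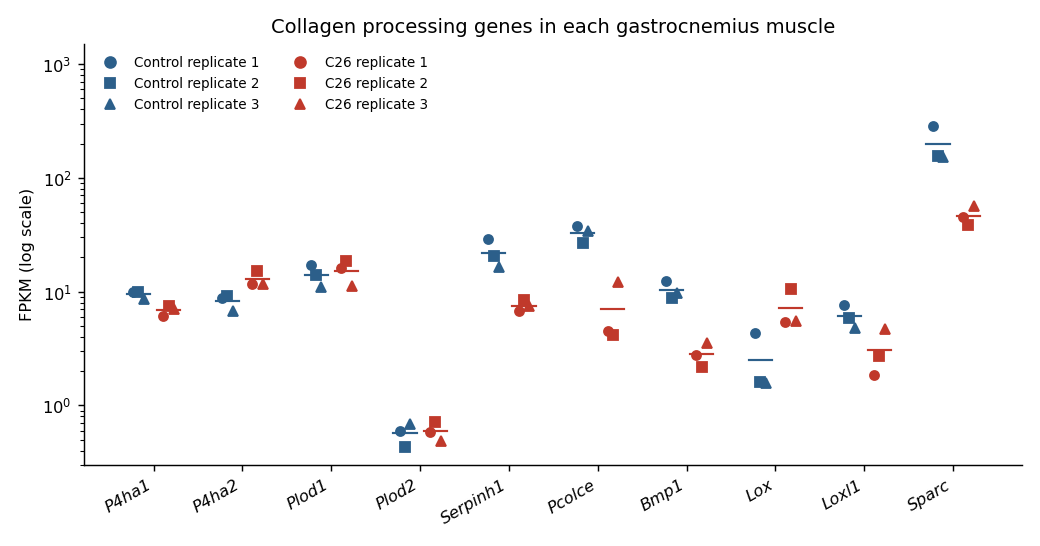
FPKM on a log axis for each of the 10 genes, with 1 point per muscle and a bar at the group mean (3 Control and 3 C26 muscles). Sparc had the highest level in both groups (198 FPKM in Control, 46.5 in C26 muscles) and Plod2 the lowest (0.570 and 0.597), and the groups overlapped for Plod1 and Plod2.

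The levels covered a wide range. In Control muscles Sparc was highest at 198 ± 76.9 FPKM (SD, n = 3), and it was followed by Pcolce, Serpinh1, Plod1, Bmp1, P4ha1, P4ha2, Loxl1, Lox and Plod2. From Pcolce down to Loxl1, the FPKM of each gene overlapped those of its neighbor in this order, so these 7 genes formed a run without clear steps. Sparc stood above this run, Lox below it, and Plod2 below Lox. In C26 muscles the order was Sparc, Plod1, P4ha2, Serpinh1, Lox, Pcolce, P4ha1, Loxl1, Bmp1 and Plod2. There, the FPKM overlapped between Plod1 and P4ha2, along the run from Serpinh1 through Lox and Pcolce to P4ha1, and between Loxl1 and Bmp1, and Pcolce, at 4.17 to 12.3 FPKM, also reached the ranges of Plod1, P4ha2 and Loxl1. These places were not resolved. The 10 genes together summed to 245 to 415 FPKM in Control muscles and to 101 to 120 in C26 muscles. Sparc made up 61.8% to 69.2% of that sum in Control muscles and 35.3% to 46.7% in C26 muscles.

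The ER enzymes came first. P4ha1 and P4ha2 encode alternative catalytic subunits of the collagen prolyl hydroxylase. P4ha2 had 11.7, 15.3 and 11.7 FPKM in C26 replicates 1, 2 and 3 and 8.72, 9.15 and 6.80 in Control replicates 1, 2 and 3. Every C26 muscle was above every Control muscle. P4ha2 was 1.76-fold higher, or 0.82 ± 0.20 on the log2 scale (SE, limma adjusted p = 0.0227). The call of P4ha2 was lost without C26 replicate 1, C26 replicate 2 or Control replicate 1 (limma adjusted p = 0.0614, 0.0759 and 0.0712) and with quantile normalization (0.0638) or an ordinary linear model (0.0633). P4ha1 had 6.15, 7.42 and 7.10 FPKM in C26 muscles and 10.01, 10 and 8.67 in Control muscles. These FPKM did not overlap, but after scaling they did, and the log2 fold change was -0.24 (95% interval -0.63 to 0.15, limma adjusted p = 0.283). With FPKM used as deposited, P4ha1 was called lower, at a log2 fold change of -0.42 (limma adjusted p = 0.0454).

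Within each muscle the balance of both subunits differed between the groups. The FPKM of P4ha1 were 1.15, 1.09 and 1.28 times those of P4ha2 in Control replicates 1, 2 and 3, and 0.526, 0.484 and 0.608 times in C26 replicates 1, 2 and 3. P4ha1 was thus the higher subunit in every Control muscle and the lower one in every C26 muscle. The mean log2 ratio was 0.21 ± 0.10 in Control muscles and -0.85 ± 0.16 in C26 muscles (SD, n = 3, two-sided exact permutation test, p = 0.1, the smallest p for 3 against 3). As 3 pairs of related genes were compared, the adjusted p of this exact permutation test was 0.15.

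The promoters of these subunits are shown because the pair shares its function and yet P4ha2 rose and P4ha1 did not pass the test. The windows run from 250 bases before to 50 after the start of the gene in RefSeq (GRCm38.p6), 5′ to 3′ on the strand of the gene. Capitals mark matches, on either strand, to any of 7 motifs: the GC box GGGCGG, the CCAAT box CCAAT, the TATA box TATAAA, the core of the hypoxia-inducible factor (HIF) site ACGTG or GCGTG, the heat shock pair GAANNTTC, the STAT motif TTCNNNGAA and the FOXO motif TGTTTAC.
P4ha1, chr10:59323046-59323345, plus strand: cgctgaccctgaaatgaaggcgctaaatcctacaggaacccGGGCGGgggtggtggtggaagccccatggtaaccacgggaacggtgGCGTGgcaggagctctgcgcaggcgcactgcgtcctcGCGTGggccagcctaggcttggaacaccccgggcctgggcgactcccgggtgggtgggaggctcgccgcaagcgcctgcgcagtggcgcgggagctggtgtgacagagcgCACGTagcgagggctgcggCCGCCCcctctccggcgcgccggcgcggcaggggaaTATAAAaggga
P4ha2, chr11:54100674-54100973, plus strand: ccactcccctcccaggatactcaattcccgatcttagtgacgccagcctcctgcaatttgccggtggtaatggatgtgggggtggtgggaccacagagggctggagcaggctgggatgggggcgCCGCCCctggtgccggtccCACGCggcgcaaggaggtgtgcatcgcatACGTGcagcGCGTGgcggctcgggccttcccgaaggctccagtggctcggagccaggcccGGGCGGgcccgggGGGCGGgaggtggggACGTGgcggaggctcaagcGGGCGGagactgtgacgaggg
The P4ha2 window held 4 GC boxes and 4 HIF cores, and the P4ha1 window held 2 GC boxes, 3 HIF cores and 1 TATA box. Neither held a match to the STAT, FOXO, heat shock or CCAAT letters. A HIF core was present in 44% of 32544 promoter windows and a GC box in 35.9%, so these short matches are common. Both windows had a GC content of 70.3%, against a median of 53% over all windows.

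Plod1 and Plod2 encode lysyl hydroxylases, of which Plod2 acts mainly on the ends of the collagen chain. Plod1 had 16.0, 18.4 and 11.1 FPKM in C26 muscles and 17.1, 13.9 and 10.96 in Control muscles. The ranges of the groups overlapped over most of their length. Its log2 fold change was 0.31, with a 95% interval from -0.26 to 0.88 (limma adjusted p = 0.334), and it lay between 0.11 without Control replicate 3 and 0.56 without C26 replicate 3. Plod2 was the lowest of the 10 genes, at 0.580, 0.720 and 0.490 FPKM in C26 muscles and 0.600, 0.430 and 0.68 in Control muscles. Its log2 fold change was 0.14 (95% interval -0.18 to 0.47, limma adjusted p = 0.438). With quantile normalization Plod2 was called higher, at a log2 fold change of 0.54 (limma adjusted p = 0.0276). At this level the added constant of 1 compresses any difference. The mean log2 ratio of Plod1 to Plod2 was 3.57 ± 0.42 in Control and 3.74 ± 0.20 in C26 muscles (SD, n = 3, two-sided exact permutation test, p = 0.5). The difference of 0.17 turned to -0.48 with quantile normalization and to -0.073 without Control replicate 3.

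Serpinh1 encodes the collagen-specific chaperone of the ER. It had 6.80, 8.41 and 7.41 FPKM in C26 replicates 1, 2 and 3 and 29.0, 20.5 and 16.5 in Control replicates 1, 2 and 3. The C26 muscles lay close together, and the lowest Control muscle was well above the highest of them. Serpinh1 was 2.35-fold lower, or -1.24 ± 0.23 on the log2 scale (SE, limma adjusted p = 0.0112). Without C26 replicate 1 the adjusted p from limma was 0.0510. Of 10 general ER chaperones, all listed, 2 were called higher and 0 lower, with a median log2 fold change of 0.48, and among all genes 19.4% were called higher. Canx, a chaperone of glycoproteins, rose by 1.44 on the log2 scale and Hspa5, the main chaperone of the ER lumen, by 1.25 (limma adjusted p = 0.0114 and 0.0436). The FPKM of Hspa5 overlapped between the groups, at 64.4 in C26 replicate 3 and 67.6 in Control replicate 3.

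Sparc encodes a secreted protein that binds collagen and is needed for normal fibrils. Its FPKM were 45.5, 38.2 and 56.0 in C26 replicates 1, 2 and 3 and 287, 156 and 151 in Control replicates 1, 2 and 3. Control replicate 1 was the highest, and all Control muscles were above all C26 muscles. Sparc was 3.52-fold lower, or -1.81 ± 0.30 on the log2 scale (SE, limma adjusted p = 0.00812), and the call held with each muscle left out in turn. The promoter windows of Serpinh1 and Sparc, genes that fell, are shown with the same motifs in capitals.
Serpinh1, chr7:99353190-99353489, minus strand: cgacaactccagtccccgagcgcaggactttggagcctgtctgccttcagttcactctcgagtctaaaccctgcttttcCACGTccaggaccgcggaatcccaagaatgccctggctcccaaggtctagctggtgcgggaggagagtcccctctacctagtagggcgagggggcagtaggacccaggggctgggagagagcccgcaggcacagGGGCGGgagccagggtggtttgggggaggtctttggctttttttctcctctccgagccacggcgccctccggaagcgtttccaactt
Sparc, chr11:55420031-55420330, minus strand: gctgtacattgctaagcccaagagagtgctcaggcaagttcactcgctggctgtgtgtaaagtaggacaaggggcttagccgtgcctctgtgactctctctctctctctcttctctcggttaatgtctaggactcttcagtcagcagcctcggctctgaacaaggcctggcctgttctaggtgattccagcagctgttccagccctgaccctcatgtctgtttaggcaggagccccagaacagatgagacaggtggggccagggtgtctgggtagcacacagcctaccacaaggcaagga
The Serpinh1 window held 1 GC box and 1 HIF core, and the Sparc window held 0 matches to the 7 motifs. The heat shock pair, present in 7.89% of all windows, was not in the Serpinh1 window. No match says only that these letters are not in the window.

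Both members that act in propeptide removal, Bmp1 and Pcolce, were called lower. Bmp1, the procollagen C-proteinase, had 2.78, 2.16 and 3.52 FPKM in C26 replicates 1, 2 and 3 and 12.4, 8.73 and 9.62 in Control replicates 1, 2 and 3. The highest C26 muscle was far below the lowest Control muscle. Bmp1 was 2.78-fold lower (log2 fold change -1.47 ± 0.22, SE, limma adjusted p = 0.00634), and it stayed called with each muscle left out. Pcolce, which speeds up this protease, had 4.46, 4.17 and 12.3 FPKM in C26 replicates 1, 2 and 3 and 38.0, 26.5 and 34.0 in Control replicates 1, 2 and 3. C26 replicate 3 stood apart from the other C26 muscles toward the Control level. Pcolce was 4.23-fold lower, the largest change of the 10 genes (log2 fold change -2.08 ± 0.42, SE, limma adjusted p = 0.0135). The log2 fold change was -2.51 without C26 replicate 3, -1.86 without C26 replicate 1, -1.80 without C26 replicate 2 and -1.99 without Control replicate 1. The adjusted p from limma was 0.0554 without C26 replicate 1 and 0.0557 without Control replicate 1, and an ordinary linear model gave 0.0628.

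Of the crosslinking genes, Lox rose and Loxl1 did not pass the test. Lox had 5.42, 10.6 and 5.56 FPKM in C26 replicates 1, 2 and 3 and 4.30, 1.60 and 1.57 in Control replicates 1, 2 and 3. C26 replicate 2 was the highest, and Control replicate 1 came close to the lowest C26 muscle without reaching it. Lox was 2.96-fold higher, or 1.57 ± 0.38 on the log2 scale (SE, limma adjusted p = 0.0222). Leaving out single muscles gave log2 fold changes from 1.30 to 1.93. The call was lost in 4 of these 6 fits, without C26 replicate 1 or 2 or Control replicate 2 or 3, with adjusted p of limma from 0.0503 to 0.0668, and with an ordinary linear model in place of limma (adjusted p = 0.0822). Loxl1, a relative linked mainly to elastin, had FPKM of 1.86, 2.70 and 4.69 in C26 replicates 1, 2 and 3 and 7.59, 5.84 and 4.76 in Control replicates 1, 2 and 3. C26 replicate 3 nearly reached Control replicate 3. The log2 fold change of Loxl1 was -0.72 (95% interval -1.53 to 0.09, limma adjusted p = 0.141). It was -0.45 without C26 replicate 1 (limma adjusted p = 0.362), and -0.99 and called without C26 replicate 3 (limma adjusted p = 0.0242).

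**Figure D2:**
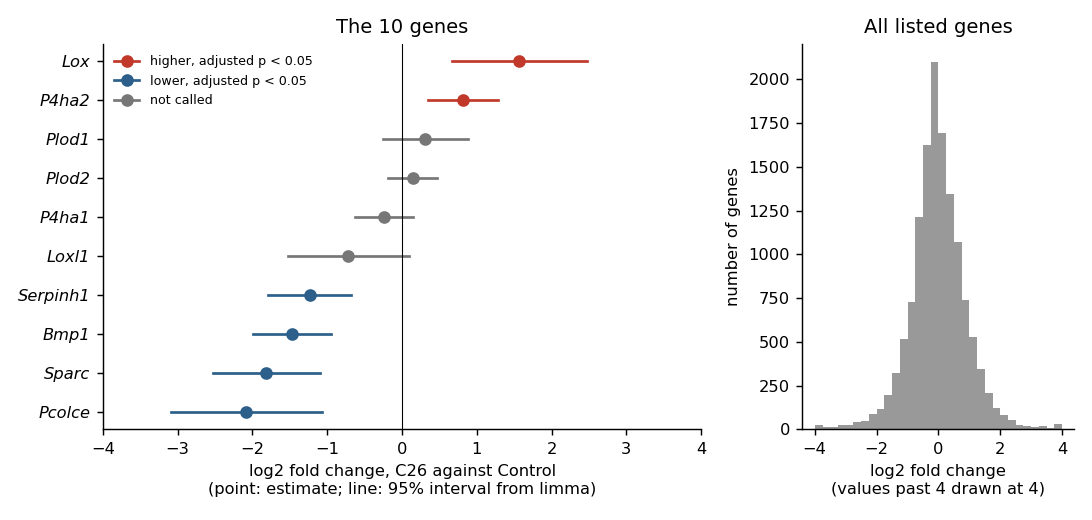
Left, log2 fold change of the 10 genes in C26 against Control muscles with 95% intervals from limma, red if called higher, blue if called lower and gray if not called. Right, the log2 fold changes of all 13363 genes. The values ran from -2.08 for Pcolce to 1.57 for Lox.

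Within a muscle, Lox was below Loxl1 in all Control muscles and above it in all C26 muscles. The FPKM ratio of Lox to Loxl1 was 0.567, 0.274 and 0.330 in Control replicates 1, 2 and 3, and 2.91, 3.93 and 1.19 in C26 replicates 1, 2 and 3. The mean log2 ratio was -1.19 ± 0.42 in Control and 1.10 ± 0.79 in C26 muscles (SD, n = 3, two-sided exact permutation test, p = 0.1, the smallest p for 3 against 3, adjusted p = 0.15 over 3 pairs).

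**Figure D3:**
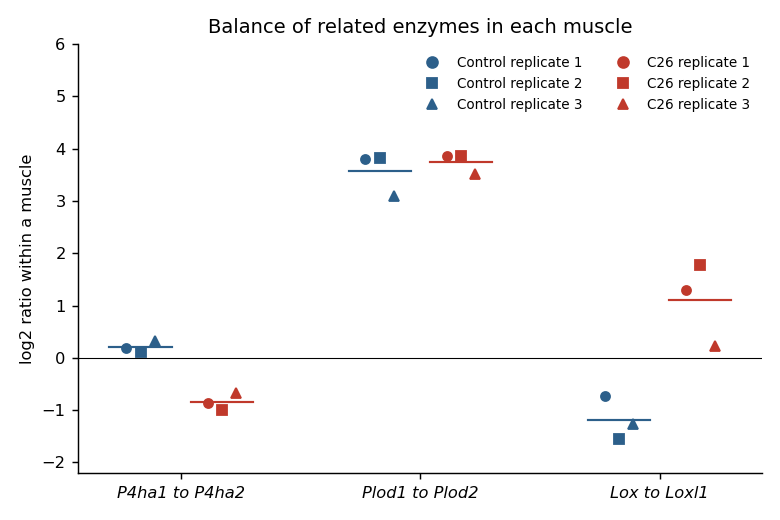
Difference of the log2 values of related genes within each muscle, with 1 point per muscle and a bar at the group mean (n = 3). P4ha1 to P4ha2 went from 0.21 in Control to -0.85 in C26 muscles and Lox to Loxl1 from -1.19 to 1.10, and the values of Plod1 to Plod2 overlapped.

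Most chains on which these enzymes act were lower as well. Of 22 collagen chain genes on the list, 20 were in the table, 15 were called lower, 0 higher and 5 neither, against 14.5% of all genes called lower, and the median log2 fold change was -1.36. The number called lower was 9 without C26 replicate 1. The sum of their FPKM lay between 227 and 367 in Control muscles and between 44.8 and 68.8 in C26 muscles. Col3a1 and Col1a1, chains of fibrillar collagen, had log2 fold changes of -3.63 and -2.97. The 10 genes were also set against this sum. Lox had 1.17, 0.668 and 0.691 FPKM per 100 FPKM of collagen chains in Control replicates 1, 2 and 3 and 10.7, 23.6 and 8.08 in C26 replicates 1, 2 and 3, a ratio of the group means of 16.7. On this measure P4ha2 had a mean of 3.06 ± 0.72 in Control and 24.7 ± 8.73 in C26 muscles, and Plod1 5.09 ± 0.62 and 29.5 ± 12.5 FPKM per 100 (SD, n = 3). Serpinh1 had 7.90, 8.58 and 7.26 FPKM per 100 in Control and 13.4, 18.8 and 10.8 in C26 muscles. Pcolce overlapped between the groups, at 12.1 ± 2.47 in Control and 11.96 ± 5.07 FPKM per 100 in C26 muscles (SD, n = 3, two-sided exact permutation test, p = 1). The other 9 genes were higher per collagen chain in every C26 muscle than in every Control muscle (two-sided exact permutation test, p = 0.1 each, the smallest possible, and adjusted p = 0.111 over the 10 genes). The same was true of 76.9% of all genes, since the collagen sum itself was lower in C26 muscles. For Sparc the difference was small, at 70.1 ± 7.09 in Control and 85.3 ± 4.03 FPKM per 100 in C26 muscles. This measure was chosen after the values were seen.

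**Figure D4:**
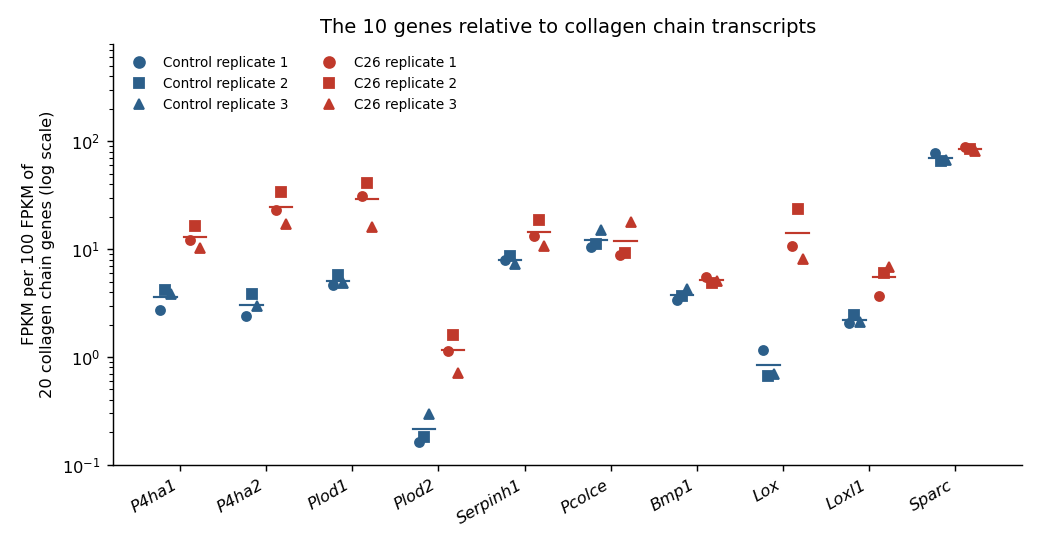
FPKM of each of the 10 genes per 100 FPKM of the 20 listed collagen chain genes, on a log axis, with 1 point per muscle and a bar at the group mean (n = 3). Pcolce overlapped between the groups, and Lox differed most, at 0.844 in Control and 14.1 in C26 muscles.

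Other genes of collagen synthesis were counted against the 19.4% of all genes called higher and the 14.5% called lower. Of 33 on the list, 29 were in the table, of which 7 were called higher, 8 lower and 14 neither, with a median log2 fold change of -0.16. Crtap, a partner of the prolyl 3-hydroxylase complex, had 2.23, 2.36 and 1.61 FPKM in C26 and 8.06, 6.34 and 7.08 in Control muscles, which made the log2 fold change -1.36 (limma adjusted p = 0.00334). Serpinf1, a secreted serpin that binds collagen, and Loxl2, another lysyl oxidase, fell with log2 fold changes of -2.19 and -1.22 (limma adjusted p = 0.0367 and 0.0110). Tmem38b, an ER cation channel, and Sec31a, a coat protein of vesicles that leave the ER, rose with log2 fold changes of 2.26 and 1.74 (limma adjusted p = 0.00645 and 0.0150). Both also act in cells that make no collagen. When single muscles were left out, 2 to 8 of these genes were called higher and 4 to 8 lower.

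Of the partners and substrates of Lox and Bmp1, all 11 were listed, and 6 were called lower and 1 higher, against 14.5% and 19.4% of all genes. Fmod and Lum, small proteoglycans of the fibril surface, had log2 fold changes of -3.05 and -1.72. Postn and Fn1, which encode the matrix proteins periostin and fibronectin, had log2 fold changes of -2.62 and -1.82. The largest adjusted p of these 4 was 0.0333 (limma). Furin, a protease of the secretory pathway that activates the Bmp1 protein, rose from 7.92 ± 0.83 to 20.4 ± 5.73 FPKM (log2 fold change 1.47, limma adjusted p = 0.00743). Of 11 listed genes of collagen breakdown, 2 were called higher and 3 lower, against 19.4% and 14.5% of all genes. Ctsl, a lysosomal protease, rose from 73.0 ± 18.3 to 335 ± 50.01 FPKM, and Mmp14, a membrane collagenase, had a log2 fold change of 0.86. Fap, Mrc2 and Timp2 had log2 fold changes of -1.46, -1.10 and -0.82.

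**Figure D5:**
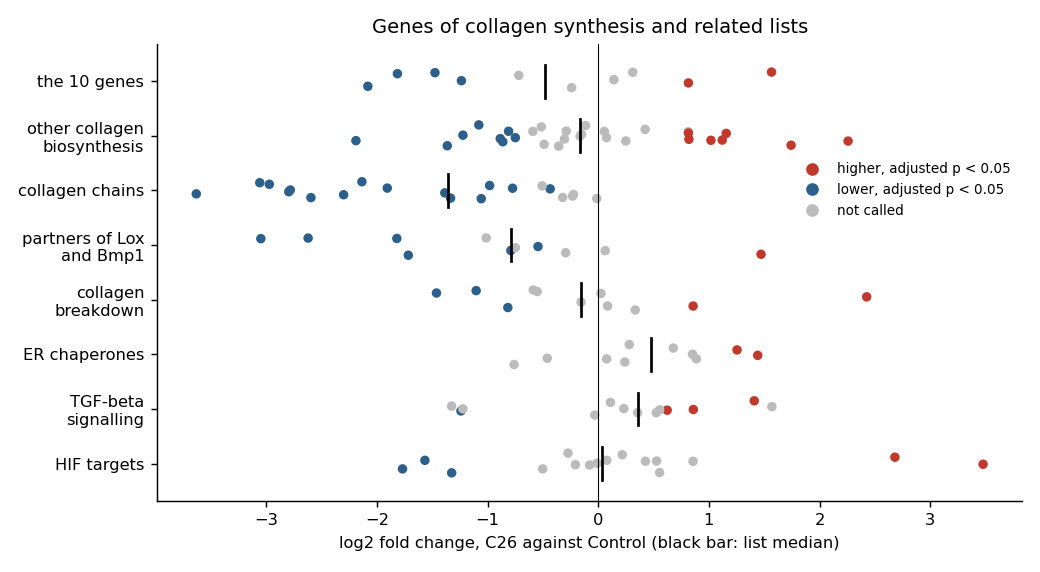
Log2 fold change in C26 against Control muscles for each listed gene of 8 lists, with 1 point per gene (red, called higher; blue, called lower; gray, not called) and a black bar at the median of the list. The 20 collagen chain genes had a median of -1.36, the other genes of collagen synthesis -0.16 and the 10 genes -0.48.

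Lox, P4ha1, P4ha2, Plod1 and Plod2 belong to the known targets of HIF, the transcription factor of the hypoxia response. Of 16 other HIF targets, 2 were called higher, 3 lower and 11 neither, near the 19.4% and 14.5% of all genes, and the median log2 fold change was 0.03. Egln3 and Bnip3 rose by 3.48 and 2.68 on the log2 scale, and Ldha, Ankrd37 and Car9 had log2 fold changes of -1.57, -1.77 and -1.32. Of 13 genes of TGF-beta signalling, a pathway that drives matrix synthesis in fibroblasts, 3 were called higher and 1 lower, also near those shares. Smad4 rose by 1.41, Tgfbr2 by 0.86 and Tgfbr3 by 0.62 on the log2 scale, and Tgfb2 had a log2 fold change of -1.24 (largest adjusted p 0.0439, limma). The FPKM of Tgfbr2 and Tgfbr3 overlapped between the groups.

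The 3 genes closest to each member across the 6 muscles were found by Pearson correlation of the log2 values, over samples that share the group difference. For Bmp1 they were Fn1 (r = 0.999), Bcap31 (0.998) and Col6a1 (0.998), a matrix gene, an ER protein gene and a collagen chain gene. For Serpinh1 they were Slc18b1 (r = 0.998), Ap3s1 (0.995) and Anxa5 (0.995), none of them on the lists used here.

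Markers of other cells of the muscle were counted beside the 10 genes, and their counts read against the 14.5% of all genes called lower. Of 16 fibroblast markers other than collagens, 15 were listed, and 8 were called lower and 0 higher. Their sum lay between 830 and 1354 FPKM in Control and between 386 and 565 in C26 muscles, and Tcf21 was not among the listed genes. Thy1, Clec3b, Dpt, Islr and Lum fell most, with log2 fold changes of -2.79, -2.22, -2.19, -1.97 and -1.72, and Thy1 was highest in Control replicate 3, at 32.9 FPKM. Pdgfra and Dcn, named after their values were seen, were not called. The fibroblast receptor gene Pdgfra had 2.03, 1.63 and 1.96 FPKM in C26 and 3.26, 2.87 and 2.98 in Control muscles, with a log2 fold change of -0.38 (limma adjusted p = 0.0828). Decorin, encoded by Dcn and abundant in fibroblasts, had a log2 fold change of -0.29 (limma adjusted p = 0.182). Of 8 tendon markers, 4 were listed and 2 were called lower, with sums of 23.8 to 56.5 FPKM in Control and 4.08 to 16.2 in C26 muscles. Tnmd, Mkx, Kera and Chad were not among the listed genes. All 8 fat cell markers were listed and 7 were called lower. Their sum was 4258, 2114 and 544 FPKM in Control replicates 1, 2 and 3, and 251 to 389 in the C26 group. In the smooth muscle and pericyte list 2 of 8 were called lower, with sums of 99.6 to 144 FPKM in Control and 56.2 to 83.5 in C26 muscles. In the endothelial list 2 of 8 were called lower, with sums of 74.6 to 112 in Control and 56.9 to 64.7 in C26 muscles. All these sums are FPKM as deposited and were not rescaled for the lower total of the C26 muscles. Small differences between sums may therefore come from the totals. Sums of 6 Schwann cell, 5 satellite cell and 10 macrophage markers overlapped between the groups, given here with Control muscles first. They were 43.0 to 121 and 21.0 to 44.7 FPKM for Schwann cells (2 called lower). For satellite cells they were 10.2 to 11.5 and 8.94 to 11.7 (1 called lower and 1 higher), and for macrophages 67.0 to 260 and 61.4 to 326 (0 called). Of 8 B and T cell markers 3 were listed and 0 called. No listed marker was at 0. The part of these cells in the changes of the 10 genes was not tested. Without C26 replicate 3 and Control replicate 3, a choice made after the data were seen, 2 of the 10 genes were called higher and 5 lower, against 28.3% and 21% of all genes.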

How the data were processed

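RNA of the gastrocnemius was sequenced on a BGISEQ-500 with single-end reads of 50 bases after removal of rRNA. The authors filtered out adaptor, low-quality and rRNA reads, aligned the rest with bowtie2 to GRCm38.p5 and obtained FPKM by RSEM. The submitters' processing notes list HISAT2 2.0.4, Bowtie2 2.2.5, RSEM 1.2.12 and the build mm9, so the build is given in conflicting ways. The RNA extraction text of the labels names another cell system and was not used. The deposited FPKM have 2 decimals, and no value was at 0.

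FPKM were rescaled to TPM and divided by unweighted TMM factors (trimmed mean of M values, computed in R with trims of 30% and 5%), which lay between 0.903 and 1.08. A pseudocount of 1 was added before log2, which understates changes of low genes. The groups were compared with limma 3.58.1 (R 4.3.3) and Benjamini-Hochberg adjustment over all 13363 genes. Symbols were found in RefSeq for 13327 Entrez IDs. Pairs of genes and values per collagen chain were compared with exact permutation tests (scipy 1.17.1). The RefSeq promoter table held windows for 6 of the 10 genes, of which 4 are shown and those of Plod1 and Pcolce are not. Lox, Loxl1, Plod2 and Bmp1 were not matched. No source says which mice of a group were chosen for sequencing, and p-values measure only the spread between these muscles.

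The members and lists were chosen with earlier results of these data known. All members are named, with up to 5 called genes of each list by the size of the change, and up to 3 most similar genes for some members. Loxl3, Loxl4 and Mylpf are named in addition, after their values were seen. A result that needs a withheld item is not reported here. Decorin, lumican, fibromodulin and Fap stand in more than 1 list. Alternatives were a pseudocount of 0.1, quantile normalization, TPM without TMM, a filter of mean TPM 1, the deposited FPKM, a replicate block, an intensity trend, an ordinary linear model and each muscle left out.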

Additional observations from a re-analysis of the deposited data

How the results depend on the processing

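No direction of the 10 fold changes was reversed by any alternative. Of the alternative fits of single genes, 130 kept the side of the threshold, 15 lost a call and 4 gained one. Limits come from 3 muscles a group, unknown depth, and a spread that single muscles set. With FPKM as deposited 1678 of all genes were called higher and 2504 lower, against 2590 and 1931 in the report. Plod2 did not enter the fit with a mean TPM of at least 1, and the other members entered every fit.

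The ordinary linear model, which borrows no spread from other genes, called 0 members higher and 0 lower by a fold above 4. It called 1526 of all genes higher and 959 lower, and 3 higher and 5 lower of the collagen synthesis list. FPKM as deposited and quantile normalization each called 2 members lower by a fold above 4 and 4 genes of the collagen synthesis list higher, and the latter called 4 of that list lower. The cause of these moves was not tested. Without both C26 replicate 3 and Control replicate 3, 2 members were lower by a fold above 4, and 3780 of all genes were called higher, 2805 lower and 17 collagen chain genes lower. The ratio of Plod1 to Plod2 changed direction, to -0.48 with quantile normalization and to -0.073 without Control replicate 3.

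Fits that left out 1 muscle called 0 to 2 members higher, 2 to 5 lower and 0 to 2 lower by a fold above 4. They called 1131 to 3311 of all genes higher and 669 to 2160 lower, 2 to 8 of the collagen synthesis list higher and 4 to 8 lower, and 9 to 16 collagen chain genes lower. The lowest count of all genes in each direction came without C26 replicate 1. The log2 ratio differences were -1.14 to -0.98 for P4ha1 to P4ha2, -0.07 to 0.32 for Plod1 to Plod2 and 1.94 to 2.73 for Lox to Loxl1.

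The replicate block called 1 member higher, since Lox had an adjusted p of 0.0546 from limma, 1236 of all genes lower and 5 of the collagen synthesis list lower, and it changed no other call of a member. The same replicate numbers did not deviate together, with correlations of -0.04, -0.08 and -0.11 between C26 and Control muscles of equal number, so the numbers were not taken as pairs.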
